A study of Mus musculus with 14 samples.

Results

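The podocyte genes described here are 31 genes of the glomerular podocyte, chosen by name from the genes known to mark or build this cell, out of 21887 protein-coding genes of the RefSeq GRCm38 annotation on chromosomes 1 to 19, X and Y. Each was followed through 14 lists of ChIP-seq peaks from mouse kidney, 8 for histone H3 lysine 9 crotonylation (H3K9cr) and 6 for H3 lysine 9 acetylation (H3K9ac). A list gives where a mark was called and carries no peak height. The measurement for a gene was therefore the length covered by peaks, in kb, within 3 kb of either gene end ("at the ends") or over the whole gene with 3 kb on each side ("over the whole gene").

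The kidneys came from C57BL/6J wild-type (WT) mice and from ACSS2-/- mice, which lack the enzyme ACSS2 in all cells after a CRISPR/Cas9 deletion, aged 6 to 8 weeks per the methods of the study. ACSS2, an acyl-CoA synthetase, makes acetyl-CoA and crotonyl-CoA, the donors for both marks. Kidneys had unilateral ureteral obstruction (UUO), in which the left ureter is tied and cut, or were controls, which the methods describe as sham-operated. H3K9cr had 2 libraries in each of WT control, ACSS2-/- control, WT UUO and ACSS2-/- UUO. H3K9ac had 2 libraries in each UUO group and 1 (replicate 2) in each control group, and replicate 1 of those control groups was not analysed here. The labels do not say that replicates came from different mice, so the p-values below measure the spread between libraries, which may be technical or between animals. In 4 groups 1 replicate had no peak on chromosome Y and the other had several: 0 and 5 in WT control H3K9cr, 5 and 0 in WT UUO H3K9cr, 14 and 0 in ACSS2-/- UUO H3K9cr, and 0 and 13 in ACSS2-/- UUO H3K9ac. Replicates are numbered by the labels, and the number inside the peak names differs from the label's in 4 libraries: replicate 1 of both H3K9cr UUO groups and both replicates of ACSS2-/- UUO H3K9ac. By the number in the peak names, the ACSS2-/- UUO libraries with 14 and 13 peaks on chromosome Y both carry 3. Those with 0 both carry 2. Whether replicates differ in the sex of the mouse was not tested. By the study's account each sample served for both marks, and a fit that joins libraries of both marks by the number in the peak names is given with the other alternatives. The catalogue number that the labels give for each antibody runs on by 1 from group to group. Whether the antibody itself changed is not known, and if it did, group and antibody cannot be told apart.

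Podocytes are the epithelial cells that wrap the glomerular capillaries with interdigitating foot processes. Between the processes runs the slit diaphragm, built on nephrin (Nphs1) and its partner Kirrel, which the adaptor Cd2ap and the scaffold Magi2 tie to an actin skeleton of Synpo, Actn4, Myo1e and Inf2. The cell's identity depends on transcription factors such as Wt1, Lmx1b, Tcf21 and Foxc2, and its loss or simplification is a hallmark of glomerular disease. H3K9cr and H3K9ac are both found at active promoters and enhancers. The libraries were made from whole kidney, in which podocytes are a small minority, and several members (Actn4, Cd2ap, Magi2, Vegfa) are also used by other kidney cells. Fewer podocytes and less mark in each podocyte cannot be told apart in such libraries.

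The H3K9cr lists held 27530 to 45014 peaks covering 29.4 to 64.6 Mb, and the H3K9ac lists held 15988 to 32760 peaks covering 17.7 to 51.1 Mb. The ACSS2-/- control libraries had the largest cover of both marks. The share of protein-coding genes with a peak at an end ranged from 53.0% to 62.5%. Read depth was not available from the lists.

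In each of the 14 libraries a larger share of podocyte genes than of all protein-coding genes carried a peak at an end, and nephrin carried none. Presence in every library was no more frequent than among all genes: a peak lay at an end of 15 of the 31 members (48.4%) in all 14 libraries, against 48.9% of protein-coding genes. These were Actn4, Cd2ap, Dach1, Foxc1, Foxc2, Inf2, Kirrel, Myo1e, Nes, Npnt, Pla2r1, Podxl, Synpo, Tcf21 and Vegfa. Only Nphs1 and the Slit receptor gene Robo2 had none in any library (6.45% of members, against 30.8% of protein-coding genes), and Nphs1 had none inside the gene either, while Robo2 had one inside the gene in 11 libraries. The remaining 14 members (45.2%, against 20.3%) had a peak in some libraries. A single library held peaks at the ends of 18 to 26 members, with a median of 22. The share was lowest in WT UUO H3K9ac replicate 1, at 58.1% of members against 53.0% of protein-coding genes, and highest in ACSS2-/- control H3K9ac, at 83.9% against 62.5%.

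The slit diaphragm genes differed among themselves. Nphs1 was bare, Kirrel had between 0.926 and 3.35 kb at its ends (median 1.52 kb), Cd2ap between 1.59 and 3.33 kb (median 2.16 kb), and Magi2 had a peak in 13 libraries. Among the regulators of transcription, Foxc1 was the most covered, with a median of 4.5 kb at its ends, followed by Foxc2 with 3.42 kb, the nuclear factor Dach1 with 2.32 kb and Tcf21 with 2.11 kb. Lmx1b, the factor mutated in nail-patella syndrome, had a peak only in the ACSS2-/- control H3K9ac library (1.12 kb). Foxd1 and the cell cycle inhibitor Cdkn1c each had a peak in 6 libraries and Wt1 in 7.

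The genes of the cytoskeleton were covered in every library at Actn4 (median 4.07 kb), Nes (an intermediate filament gene, 3.02 kb), Myo1e (2.25 kb), Synpo (1.64 kb) and Inf2 (1.13 kb). Arhgap24, a GTPase-activating protein for Rac, was bare at its ends in all 6 H3K9ac libraries and had 0.477 to 1.05 kb in 4 H3K9cr libraries. Among surface proteins, Podxl had a median of 1.61 kb and Pla2r1 1.19 kb. The tyrosine phosphatase Ptpro had peaks in 3 H3K9cr libraries and in no H3K9ac library, and the cation channel Trpc6 in 1 library, H3K9cr WT UUO replicate 2 (0.678 kb). The secreted factors Vegfa (median 3.44 kb) and Npnt (1.87 kb) had peaks in every library, and Sema3g in 11. These are lengths and were not divided by gene length.

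**Figure D1:**
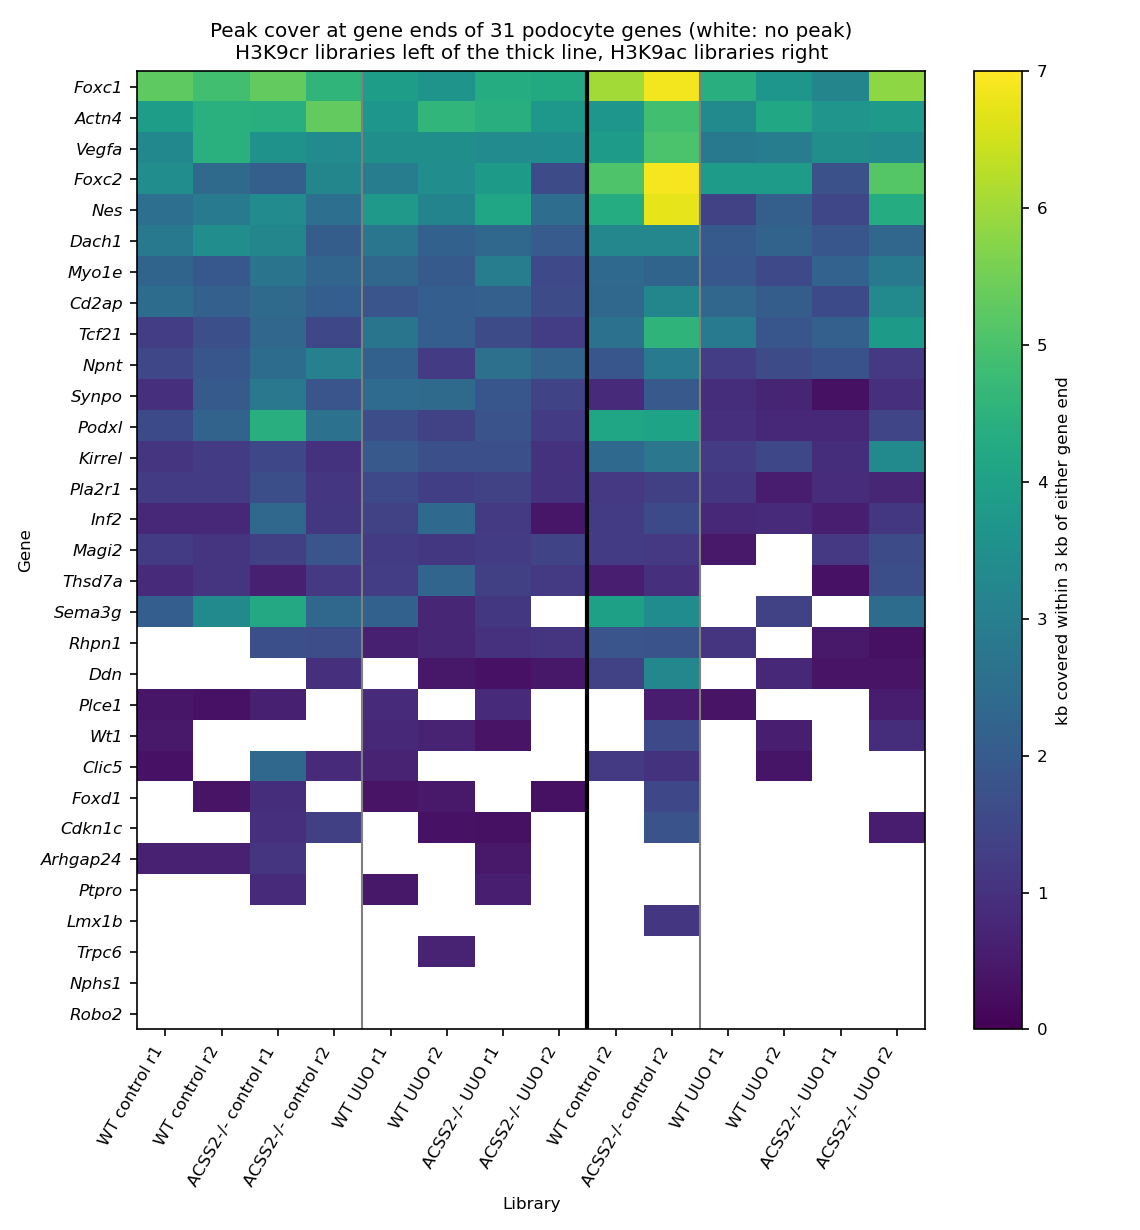
Cover at the gene ends of the 31 podocyte genes. Each row is a gene, each column 1 of the 14 libraries (8 H3K9cr, then 6 H3K9ac), and the colour gives kb covered within 3 kb of either gene end. Nphs1 and Robo2 are at 0 throughout, while Foxc1 lies between 3.17 and 6.87 kb.

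RefSeq start sites were at hand for 23 members, with 29 windows from 250 bases before to 50 bases after the start. The 250 bases before the start are printed for 4 of them because they set 2 genes of the slit diaphragm and foot process with no peak in the window beside 2 that carried a peak in the window in all 14 libraries. Capitals mark matches, on either strand, to GNGGGNGNG, a G-rich motif bound by WT1. The build is GRCm38.p6, the letters are given along the gene's own strand, and the windows are chr7:30459808-30460057 for Nphs1 (plus strand), chr6:137252049-137252298 for Ptpro (plus), chr3:87174538-87174787 for Kirrel (minus) and chr17:42876425-42876674 for Cd2ap (minus).
Nphs1: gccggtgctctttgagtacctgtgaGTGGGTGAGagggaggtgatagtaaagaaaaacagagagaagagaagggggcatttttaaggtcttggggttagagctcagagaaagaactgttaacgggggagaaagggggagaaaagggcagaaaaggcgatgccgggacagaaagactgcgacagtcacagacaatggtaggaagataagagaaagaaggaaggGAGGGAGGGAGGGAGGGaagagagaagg
Ptpro: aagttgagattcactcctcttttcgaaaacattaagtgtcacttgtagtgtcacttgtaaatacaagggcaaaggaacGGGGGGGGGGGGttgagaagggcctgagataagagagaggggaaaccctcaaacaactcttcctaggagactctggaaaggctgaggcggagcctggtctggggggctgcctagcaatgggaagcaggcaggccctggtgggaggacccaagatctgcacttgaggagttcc
Kirrel: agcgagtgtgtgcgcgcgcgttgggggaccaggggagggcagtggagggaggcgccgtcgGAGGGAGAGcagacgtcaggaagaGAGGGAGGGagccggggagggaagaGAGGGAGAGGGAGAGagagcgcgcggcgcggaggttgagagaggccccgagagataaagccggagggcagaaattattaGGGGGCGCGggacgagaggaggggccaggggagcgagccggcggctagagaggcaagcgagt
Cd2ap: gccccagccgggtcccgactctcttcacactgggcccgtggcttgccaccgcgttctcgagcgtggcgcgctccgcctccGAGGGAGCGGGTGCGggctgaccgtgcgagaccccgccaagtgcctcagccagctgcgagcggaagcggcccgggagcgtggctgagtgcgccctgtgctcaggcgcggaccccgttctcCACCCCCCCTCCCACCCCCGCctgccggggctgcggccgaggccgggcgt

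These promoters differed in CpG content and shared the motif. The 250 bases of Nphs1 held 50.8% G and C with a CpG ratio (observed over expected) of 0.506, and those of Ptpro 53.6% with 0.180. Kirrel had 68.8% with 1.12, and Cd2ap 76.4% with 0.855. The motif matched at 4 positions in Nphs1, 4 in Ptpro, 5 in Kirrel and 7 in Cd2ap, counting overlapping matches. Over all 29 windows it was found in 17 (58.6%), against 40.1% of 32851 RefSeq promoters of the same length. The forkhead motif GTAAACA was in 0 member windows (3.17% of all promoters), TAATTA, which homeodomain factors bind, in 1 (3.45%, against 4.84%), and the E-box CAGCTG in 5 (17.2%, against 13.0%). All 4 motifs were searched on both strands, and matches that overlap another motif were kept. A match is a run of letters and not a bound site.

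Across the 29 windows, a peak in every library was more frequent where the CpG ratio was high. Of 8 member windows with a ratio of at least 0.75 (Foxc1, Actn4, Cd2ap, Kirrel, Clic5, Dach1 and 1 start each of Magi2 and Npnt), 4 had a peak in all 14 libraries and 0 had none. Of 15 windows from 0.4 to 0.75, 1 had a peak in all libraries and 4 had none. Of 6 windows below 0.4 (Tcf21, Ptpro, Sema3g and 1 start each of Magi2, Vegfa and Robo2), 0 had a peak in all and 4 had none. Over all protein-coding promoters the shares with a peak in all 14 libraries were 60.5% of 6464, 40.3% of 6111 and 5.33% of 8688 in the same order, and the shares with none were 6.31%, 21.1% and 72.3%. These are counts without a test, and starts of 1 gene share their locus.

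**Figure D2:**
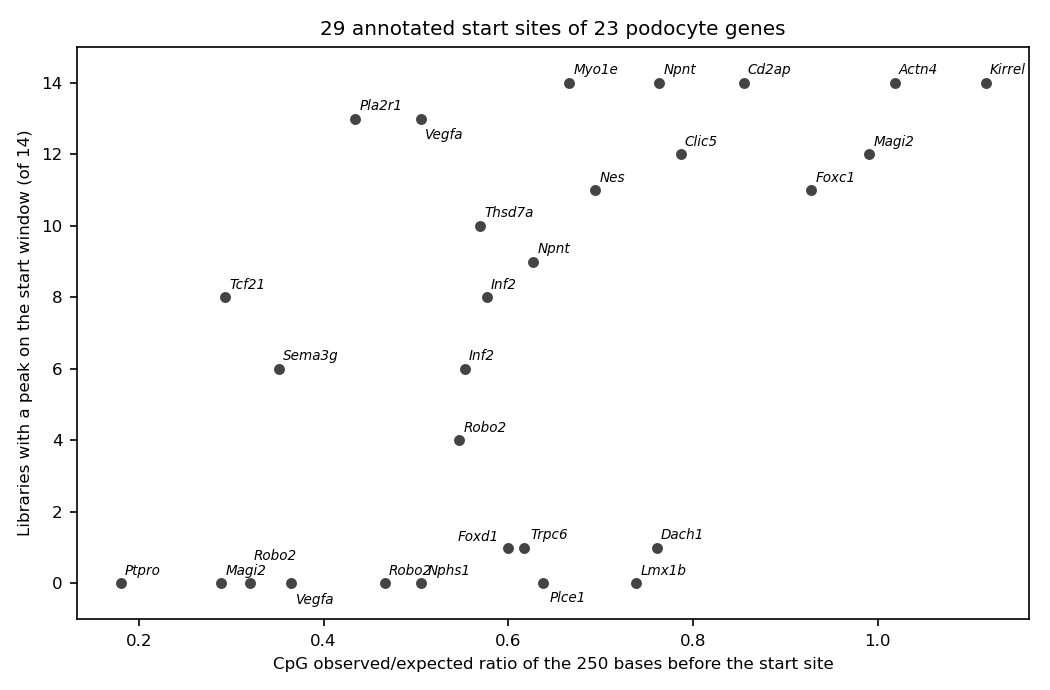
Number of libraries with a peak in the start window (vertical axis, 0 to 14) against the CpG ratio of the 250 bases before the start (horizontal axis) for 29 start sites of 23 podocyte genes. Kirrel, with a ratio of 1.12, sits at 14 libraries, and Ptpro, with 0.180, at 0.

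Podxl, Synpo, Wt1 and Nphs1, the 4 markers given in full, went different ways. In the sentences that follow, values are kb in the order replicate 1 and 2 unless 1 library is named. Podxl encodes podocalyxin, the sialoprotein coating the foot processes, on chromosome 6 from 31519493 to 31563937. In H3K9cr its ends carried 1.56 and 2.22 kb in WT control, 4.40 and 2.61 kb in ACSS2-/- control, 1.66 and 1.38 kb in WT UUO, and 1.79 and 1.24 kb in ACSS2-/- UUO. The 4 UUO libraries overlapped the controls, since WT control replicate 1 lay among them. In H3K9ac the ends carried 4.14 kb in WT control and 4.06 kb in ACSS2-/- control, against 0.972 and 0.814 kb in WT UUO and 0.795 and 1.47 kb in ACSS2-/- UUO, with no overlap.

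Synpo encodes synaptopodin, an actin-bundling protein of the foot process. Its ends carried 0.964 and 1.98 kb of H3K9cr in WT control, 2.81 and 1.84 kb in ACSS2-/- control, 2.45 and 2.43 kb in WT UUO and 1.88 and 1.45 kb in ACSS2-/- UUO, so control and UUO overlapped. Its H3K9ac was 0.864 kb in WT control, 1.95 kb in ACSS2-/- control, 0.910 and 0.719 kb in WT UUO and 0.313 and 0.940 kb in ACSS2-/- UUO.

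Wt1, the transcription factor that defines the podocyte lineage, lies on chromosome 2 from 105126529 to 105173614. Its H3K9cr was 0.481 and 0 kb in WT control, 0 in both ACSS2-/- control libraries, 0.805 and 0.685 kb in WT UUO, and 0.371 and 0 kb in ACSS2-/- UUO. Its H3K9ac was 0 in WT control, 1.55 kb in ACSS2-/- control, 0 and 0.582 kb in WT UUO and 0 and 0.924 kb in ACSS2-/- UUO. Nphs1, on chromosome 7 from 30458207 to 30488623, was at 0 in all 14 libraries. For H3K9cr, an exact two-sided permutation of the operation over the 8 libraries (70 arrangements) gave p = 0.0857 for Podxl, 0.657 for Synpo and 0.257 for Wt1, where 0.0286 is the smallest p that this design allows. The windows of 4 members, Nphs1, Podxl, Synpo and Actn4, reach into a neighbouring protein-coding gene, and a peak there was counted for both.

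**Figure D3:**
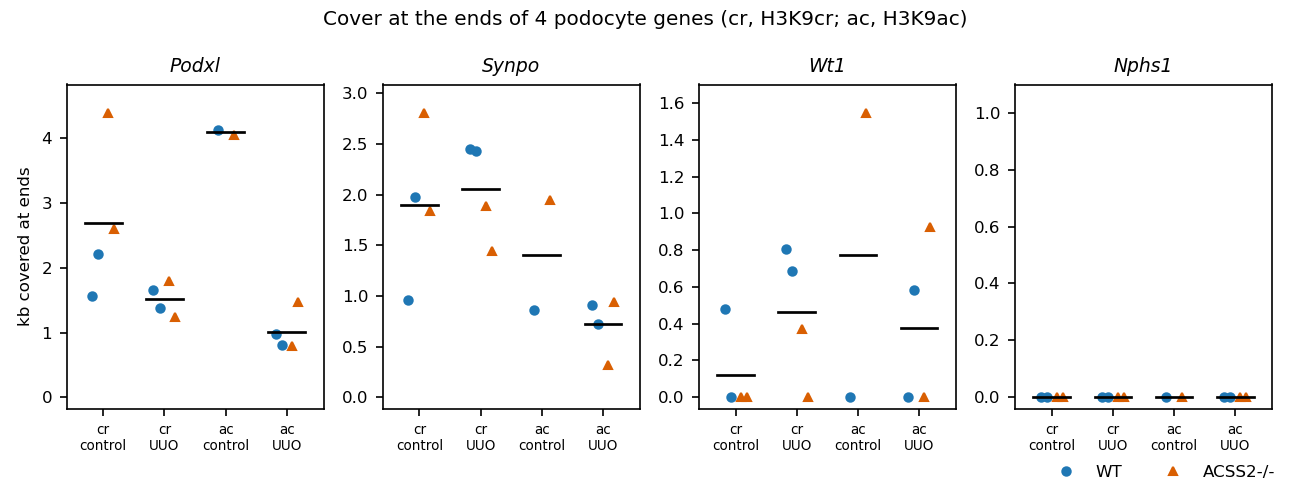
kb covered at the ends of Podxl, Synpo, Wt1 and Nphs1, 1 point a library (circles WT, triangles ACSS2-/-), by mark and operation. Horizontal lines are group means over 4 libraries, or 2 for H3K9ac control, and the vertical scales differ between genes. Podxl H3K9ac control lies near 4 kb and every UUO library below 1.5 kb.

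The first comparison asked whether H3K9cr at podocyte genes differed between UUO and control. At the gene ends no member passed limma, a linear model fitted here to 15136 protein-coding genes with a peak at an end in at least 1 library (29 of the 31 members, without Nphs1 and Robo2). At an adjusted p (Benjamini-Hochberg) under 0.05, 0 of 29 members were lower and 0 higher in UUO, beside 8.67% of all genes lower and 1.66% higher. At an unadjusted p under 0.05 there were 4 members, all lower: Sema3g, Podxl, Clic5 and Cdkn1c. Sema3g, a secreted semaphorin, had the largest difference, -1.98 kb (SE 0.733, limma adjusted p = 0.138), and Podxl differed by -1.18 kb (SE 0.394, limma adjusted p = 0.104). Without ACSS2-/- control replicate 2, 3 members passed (Podxl, Clic5 and Arhgap24, all lower), and without WT UUO replicate 1, 1 did (Trpc6, higher, with its peak in 1 library). In all, 14 members lay below 0 and 14 above it, with a median of 0.0 kb against -0.16 kb for all genes.

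For 2 members the 4 UUO libraries and the 4 control libraries did not overlap at the ends. Foxc1, a forkhead factor of the podocyte, had 5.27 and 4.87 kb in WT control, 5.33 and 4.58 kb in ACSS2-/- control, 3.92 and 3.63 kb in WT UUO and 4.32 and 4.26 kb in ACSS2-/- UUO. It was lower in every UUO library, as were 12.7% of all genes. Thsd7a, a foot process membrane protein and an autoantigen of membranous nephropathy, had 0.841 and 1.07 kb in WT control, 0.606 and 1.15 kb in ACSS2-/- control, 1.27 and 2.29 kb in WT UUO, and 1.32 and 1.196 kb in ACSS2-/- UUO. It was higher in every UUO library, as were 2.23% of all genes. Neither passed limma's threshold over all genes. 

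Over the whole gene, 8 of 30 members lost H3K9cr cover in UUO and 0 gained it by limma, beside 15.5% of 15970 genes lower. The 8 were a Rac regulator, an actin crosslinker, a myosin, a slit scaffold, a phospholipase, an ezrin-associated protein, the surface sialoprotein and a matrix ligand, and all of them are genes of at least 40 kb. Arhgap24 had 28.9 and 30.4 kb in WT control, 62.9 and 36.7 kb in ACSS2-/- control, 23.4 and 15.3 kb in WT UUO, and 20.5 and 15.3 kb in ACSS2-/- UUO. Every UUO library lay below every control, with a difference of -21.1 kb (SE 5.33, limma adjusted p = 0.0307). Actn4, alpha-actinin 4, which crosslinks actin in the foot process, had 25.0 and 30.4 kb in WT control, 43.7 and 38.8 kb in ACSS2-/- control, 22.6 and 18.2 kb in WT UUO, and 20.7 and 16.9 kb in ACSS2-/- UUO. Its groups did not overlap, and it differed by -14.8 kb (SE 3.12, limma adjusted p = 0.0150).

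Myo1e, a class I myosin of the foot process, had 11.9 and 11.2 kb in WT control, 18.5 and 19.8 kb in ACSS2-/- control, 10.1 and 7.77 kb in WT UUO, and 11.3 and 5.41 kb in ACSS2-/- UUO. ACSS2-/- UUO replicate 1 reached WT control replicate 2, and the difference was -6.73 kb (SE 1.27, limma adjusted p = 0.00993). Podxl had 2.82 and 4.41 kb in WT control, 8.82 and 5.93 kb in ACSS2-/- control, 2.79 and 1.76 kb in WT UUO, and 2.33 and 1.95 kb in ACSS2-/- UUO. Its groups did not overlap, WT control replicate 1 and WT UUO replicate 1 lay side by side, and the difference was -3.29 kb (SE 0.653, limma adjusted p = 0.0120).

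Magi2 had 6.98 and 7.16 kb in WT control, 9.40 and 10.1 kb in ACSS2-/- control, 4.41 and 4.62 kb in WT UUO, and 5.22 and 4.37 kb in ACSS2-/- UUO. It was lower in every UUO library, by -3.77 kb (SE 0.415, limma adjusted p = 0.00133), the smallest adjusted p among the members. Clic5, an ezrin-associated protein of the foot process, had 4.25 and 5.45 kb in WT control, 11.6 and 7.42 kb in ACSS2-/- control, 4.79 and 2.47 kb in WT UUO, and 2.68 and 1.88 kb in ACSS2-/- UUO. WT UUO replicate 1 overlapped the controls, and the difference was -4.22 kb (SE 0.933, limma adjusted p = 0.0185).

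Plce1, phospholipase C epsilon, which is mutated in early nephrotic syndrome, had 2.30 and 2.18 kb in WT control, 4.38 and 2.28 kb in ACSS2-/- control, 1.17 and 0 kb in WT UUO, and 0.865 and 0.606 kb in ACSS2-/- UUO. It was lower in every UUO library, by -2.13 kb (SE 0.456, limma adjusted p = 0.0163). Npnt, nephronectin, an integrin ligand of the glomerular basement membrane, had 3.97 and 2.34 kb in WT control, 5.32 and 4.59 kb in ACSS2-/- control, 2.58 and 1.63 kb in WT UUO, and 2.63 and 2.73 kb in ACSS2-/- UUO. WT control replicate 2 lay among its UUO libraries, and it differed by -1.66 kb (SE 0.393, limma adjusted p = 0.0239). 

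The difference was positive for Synpo (3.71 kb, SE 3.06, limma adjusted p = 0.452), as it was for Kirrel, Nes and Thsd7a among others. Synpo carried 10.2 and 12.1 kb over the whole gene in WT control, 21.8 and 16.7 kb in ACSS2-/- control, 21.3 and 18.1 kb in WT UUO, and 24.2 and 11.98 kb in ACSS2-/- UUO, with overlapping groups and an exact two-sided permutation p of 0.343. There were 9 members lower over the whole gene in every UUO library than in every control (16.5% of all genes): Pla2r1, Magi2, Arhgap24, Podxl, Actn4, Foxc1, Dach1, Vegfa and Plce1. Thsd7a alone was higher in every UUO library (2.35% of all genes).

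**Figure D4:**
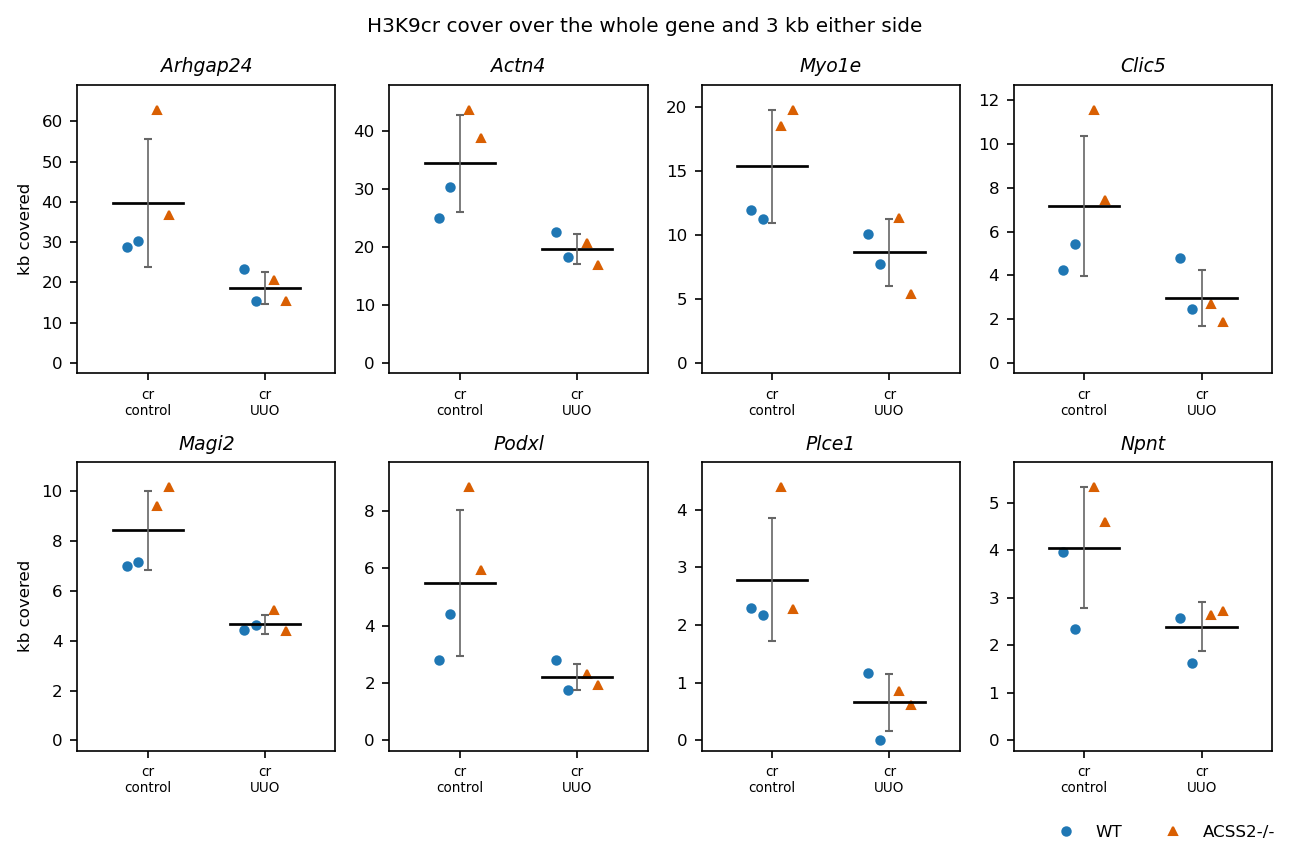
H3K9cr over the whole gene (kb) for the 8 podocyte genes that passed limma, in control and UUO kidneys. Points are libraries (circles WT, triangles ACSS2-/-) and bars are mean ± SD of 4 libraries. Podxl, Magi2, Plce1, Actn4 and Arhgap24 have every UUO library below every control.

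The members that lost H3K9cr cover were long genes. The median length was 68.8 kb for the 30 members and 23.5 kb for all genes tested. Among genes of at least 40 kb, 21.2% were lower in UUO, and 8 of 19 members were. Among shorter genes, 12.5% were lower, and 0 of 11 members were. In H3K9ac, by contrast, 34.1% of the genes of at least 40 kb and 5 of 19 members were lower, against 42.1% of shorter genes and 9 of 11 members. When each library was scaled to the same total cover, 5 members passed limma's threshold: Arhgap24 (-9.93 kb), Clic5 (-2.23 kb), Podxl (-1.69 kb) and Plce1 (-1.38 kb) were lower, and Synpo was higher (7.85 kb, limma adjusted p = 0.0486). Actn4, Myo1e, Magi2 and Npnt were not among them. This scaling moved the median difference over all genes at the ends from -0.16 to 0.25 kb and the split of calls there from 251 higher and 1312 lower to 264 higher and 188 lower. The share of all genes called over the whole gene with scaling is not given, so the 5 members cannot be set against it. Without single libraries the number of members called over the whole gene ranged from 4 (without either replicate 2 of UUO, each in turn) to 11 (without ACSS2-/- control replicate 2). It was 5 without WT control replicate 2. Podxl passed under each of the 18 alternatives run over the whole gene.

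The peaks along 4 of these genes show where the cover lay. In Podxl a short stretch near the higher-coordinate end, from 43.73 to 43.94 kb of the lower end, was covered in all 14 libraries. Its H3K9ac control libraries had 7 and 9 peaks over the gene and its flanks, against 1, 1, 2 and 1 in UUO. In Arhgap24, nothing was covered in all libraries near the ends, and the stretches covered in all of them lay from 561.6 to 562.7, 638.1 to 639.5 and 640.0 to 641.4 kb from the lower end. Arhgap24 with 3 kb on each side held 10 to 41 peaks of H3K9cr and 5 to 16 of H3K9ac. In Myo1e the only stretch covered in all libraries was the first 1.14 kb, with 5 to 16 peaks of H3K9cr and 1 to 6 of H3K9ac in the gene and its flanks. In Actn4, 2 stretches near the higher end (66.1 to 69.1 and 69.4 to 69.7 kb) and 2 inside (30.3 to 30.6 and 31.5 to 32.0 kb) were covered in all libraries.

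**Figure D5:**
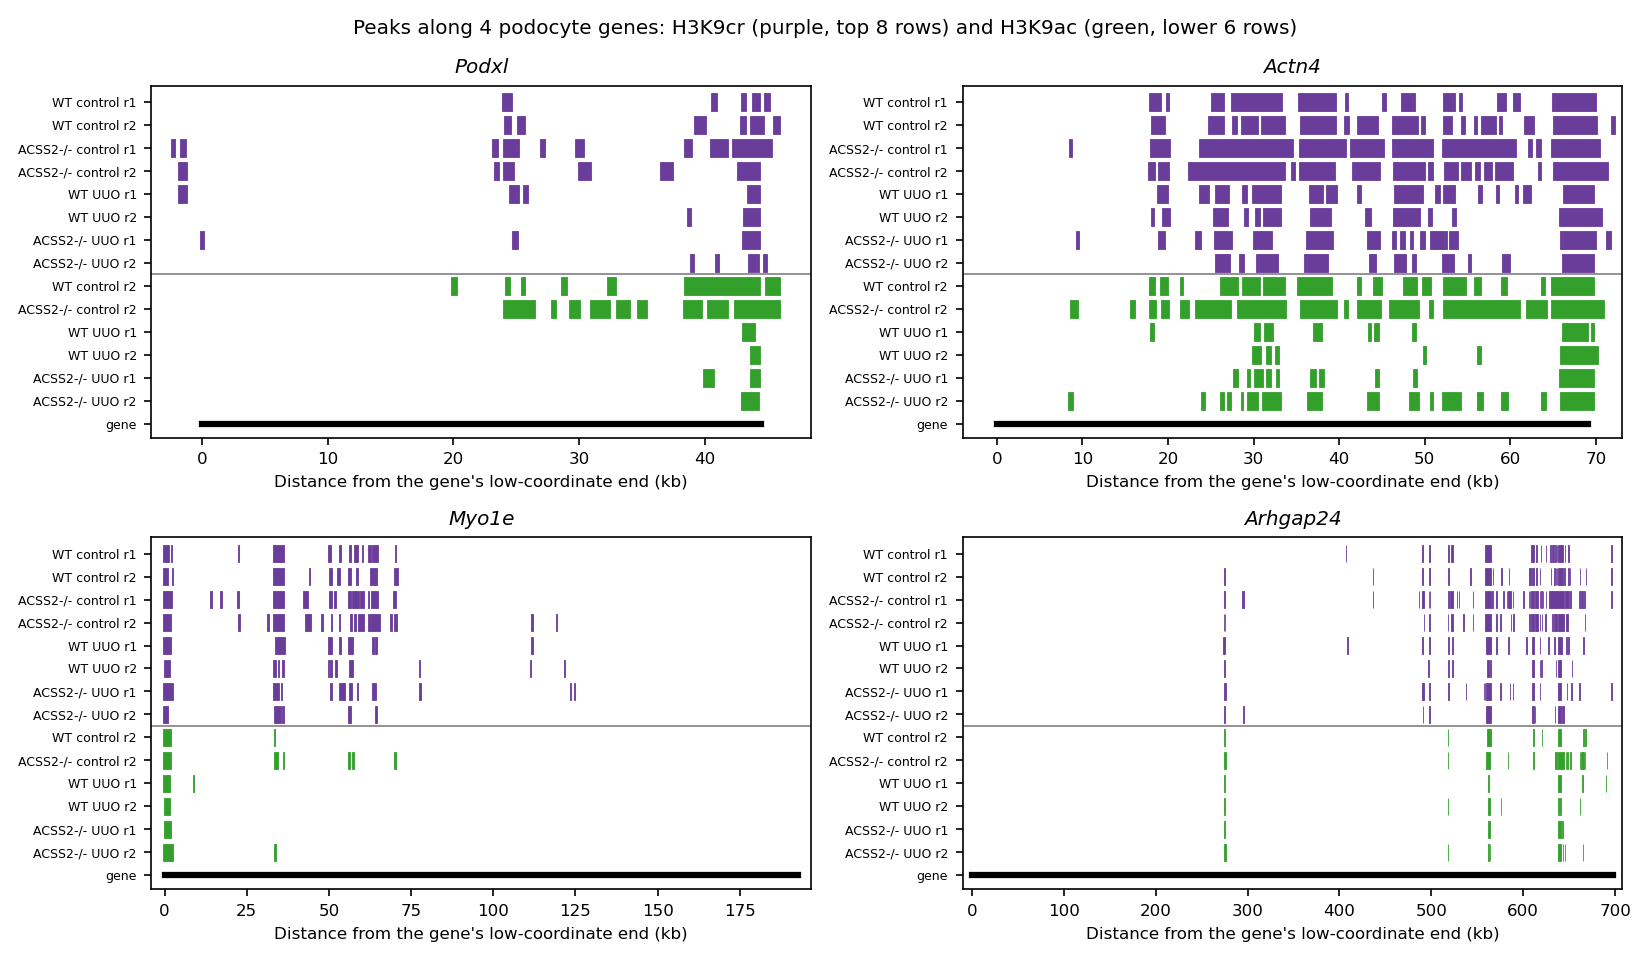
Peaks along Podxl, Actn4, Myo1e and Arhgap24 in 14 libraries (1 line a library, coloured by mark). The horizontal axis is the distance in kb from the lower-coordinate gene end. Podxl has a peak in every library close to 44 kb, and Arhgap24 has many H3K9cr peaks far from either end.

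The second comparison, UUO against control for H3K9ac, set 4 libraries against 2. At the ends, 11 of 29 members were lower by limma and 0 higher, beside 38.5% of all genes lower, so the members' share was close to that of all genes. The members' median difference was -0.76 kb and that of all genes -0.64 kb, and 26 of 29 members lay below 0. Podxl fell from the 4.14 and 4.06 kb given above to 0.795 to 1.47 kb, a difference of -3.09 kb (SE 0.482, limma adjusted p = 0.00397). Nes, nestin, an intermediate filament of podocytes and of vessels, had 4.32 kb in WT control and 6.73 kb in ACSS2-/- control, against 1.39 and 2.11 kb in WT UUO and 1.503 and 4.34 kb in ACSS2-/- UUO. ACSS2-/- UUO replicate 2 overlapped the controls, and the difference was -3.19 kb (SE 0.789, limma adjusted p = 0.0179).

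Sema3g had 3.99 kb in WT control and 3.40 kb in ACSS2-/- control, against 0 and 1.38 kb in WT UUO and 0 and 2.48 kb in ACSS2-/- UUO (difference -2.73 kb, SE 0.898, limma adjusted p = 0.0454). Foxc1 had 6.03 kb in WT control and 6.87 kb in ACSS2-/- control, against 4.41 and 3.69 kb in WT UUO and 3.17 and 5.82 kb in ACSS2-/- UUO (difference -2.17 kb, SE 0.660, limma adjusted p = 0.0351). Neither gene's groups overlapped. Ddn encodes dendrin, a protein of the slit diaphragm complex that can enter the nucleus. It had 1.39 kb in WT control and 3.25 kb in ACSS2-/- control, against 0 and 0.805 kb in WT UUO and 0.375 and 0.377 kb in ACSS2-/- UUO (difference -1.93 kb, SE 0.302, limma adjusted p = 0.00402).

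Rhpn1, a gene of the foot process, had 1.84 kb in WT control and 1.78 kb in ACSS2-/- control, against 1.08 and 0 kb in WT UUO and 0.475 and 0.311 kb in ACSS2-/- UUO (difference -1.34 kb, SE 0.256, limma adjusted p = 0.00745). Vegfa, the growth factor through which podocytes maintain the glomerular endothelium, had 3.84 kb in WT control and 5.02 kb in ACSS2-/- control, against 2.83 and 2.97 kb in WT UUO and 3.46 and 3.37 kb in ACSS2-/- UUO (difference -1.27 kb, SE 0.307, limma adjusted p = 0.0165). Dach1 had 3.24 and 3.23 kb in the controls, against 1.99 and 2.22 kb in WT UUO and 1.87 and 2.32 kb in ACSS2-/- UUO (difference -1.14 kb, SE 0.367, limma adjusted p = 0.0429). In all 3 the groups stood apart.

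The other 3 members, all regulators, passed limma's threshold on very few peaks. Foxd1 had 1.52 kb in the ACSS2-/- control library and 0 in the other 5 H3K9ac libraries. Cdkn1c had 1.78 kb in that control library and 0.529 kb in ACSS2-/- UUO replicate 2, and was at 0 elsewhere. Lmx1b rests on the same control library alone. Leaving that library out turns the contrast into WT alone, and is not the same comparison with a library fewer. Without ACSS2-/- control replicate 2, the only H3K9ac control library of that genotype, 1 member (Podxl) passed. Without WT UUO replicate 1 there were 6, and without WT UUO replicate 2 there were 7.

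For 11 members every UUO library lay below both controls at the ends (43.3% of all genes): Pla2r1, Npnt, Podxl, Inf2, Foxc1, Sema3g, Dach1, Rhpn1, Ddn, Clic5 and Vegfa. With libraries scaled to equal total cover, 6 members passed limma's threshold: Podxl (-2.05 kb), Ddn (-1.30 kb) and Lmx1b (-0.41 kb) were lower, while Actn4 (2.71 kb), Myo1e (1.49 kb) and Cd2ap (1.45 kb) were higher. Foxc1, Vegfa and Dach1 lay above 0 with this scaling, and their direction depends on it. The scaling moved the median over all genes from -0.64 to 0.37 kb and the members' median from -0.76 to 0.05 kb. It turned the calls over all genes from 27 higher and 5824 lower to 2211 higher and 792 lower.

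Taken over the whole gene, 14 of 30 members were lower in H3K9ac (39.4% of all genes) and 0 higher. Actn4 led, with 26.9 kb in WT control and 43.9 kb in ACSS2-/- control, against 7.77 and 7.33 kb in WT UUO and 9.17 and 18.7 kb in ACSS2-/- UUO (difference -24.7 kb, SE 3.82, limma adjusted p = 0.00342). Podxl had 9.63 and 14.03 kb in the controls, against 0.972, 0.814, 1.66 and 1.47 kb in UUO (difference -10.6 kb, SE 0.800, limma adjusted p = 0.000473). The others were Vegfa, Clic5, Nes, Sema3g, Inf2, Magi2, Foxc1, Ddn, Rhpn1, Foxd1, Cdkn1c and Lmx1b. With scaling, Actn4 (-13.4 kb), Podxl (-8.31 kb) and Clic5 (-3.23 kb) passed, and without ACSS2-/- control replicate 2 only Podxl did. Actn4 thus had the opposite sign at the ends and over the whole gene after scaling. Podxl was lower over the whole gene in both marks. The libraries of the 2 marks differ, but by the study's account each sample served for both, so these comparisons are not independent.

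The third comparison asked how H3K9cr and H3K9ac differ at these genes. At the ends, 4 of 29 members passed limma: Synpo had more H3K9cr (5.64% of all genes), and Tcf21, Ddn and Lmx1b had less (9.91% of all genes). Synpo differed by 0.912 kb (SE 0.239, limma adjusted p = 0.0403). Its H3K9cr libraries ranged from 0.964 to 2.81 kb and its H3K9ac libraries from 0.313 to 1.95 kb. Tcf21, a helix-loop-helix factor of the podocyte, had 1.27 and 1.70 kb of H3K9cr in WT control, 2.32 and 1.53 kb in ACSS2-/- control, 2.72 and 2.08 kb in WT UUO, and 1.62 and 1.27 kb in ACSS2-/- UUO. Its H3K9ac was 2.63 kb in WT control, 4.56 kb in ACSS2-/- control, 2.88 and 1.89 kb in WT UUO, and 2.13 and 3.80 kb in ACSS2-/- UUO (difference -1.32 kb, SE 0.332, limma adjusted p = 0.0350). The H3K9cr of Ddn was 0 in 4 libraries and at most 0.970 kb, and it differed from H3K9ac by -1.08 kb (SE 0.195, limma adjusted p = 0.0131). Leaving out the ACSS2-/- control H3K9ac library also drops ACSS2-/- control from the contrast of the marks. Without the ACSS2-/- control H3K9ac library 0 members passed, and without ACSS2-/- UUO H3K9ac replicate 1 there were 7.

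In whole genes, 6 members had more H3K9cr than H3K9ac (10.6% of all genes) and 4 had less (9.68%). Myo1e stood apart, with 5.41 to 19.8 kb of H3K9cr and 1.55 to 5.30 kb of H3K9ac (difference 8.79 kb, SE 1.00, limma adjusted p = 0.00301). It was the only member in which every H3K9cr library lay above every H3K9ac library, as in 1.12% of all genes. Arhgap24 differed by 15.8 kb (SE 4.22, limma adjusted p = 0.0368), with 15.3 to 62.9 kb of H3K9cr and 6.48 to 24.8 kb of H3K9ac. Synpo differed by 8.38 kb, Magi2 by 2.50 kb, Plce1 by 1.48 kb and Npnt by 1.12 kb. Podxl went the other way (-2.68 kb, limma adjusted p = 0.0129), with Tcf21, Ddn and Lmx1b. Among all genes of at least 40 kb, 17.3% had more H3K9cr, and 6 of 19 members did. Without the ACSS2-/- control H3K9ac library 2 members passed, Magi2 and Myo1e.

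Scaling to equal cover changed the comparison of marks at the ends, where 12 members were then lower in H3K9cr and 0 higher, with 543 higher and 7177 lower among all genes against 854 and 1500 without scaling. Myo1e was among those 12 (-0.91 kb) while it remained higher in H3K9cr over the whole gene (6.21 kb). Over the whole gene with scaling, Arhgap24, Myo1e, Synpo and Plce1 were higher in H3K9cr and 10 members lower. The direction for Myo1e at the ends therefore depends on the scaling.

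The deletion of ACSS2 was compared within each operation. In UUO kidneys 0 of 29 members differed in H3K9cr by limma, beside 0.152% of all genes, and 0 members had an unadjusted p under 0.05. There were 7 members lower in both ACSS2-/- libraries than in both WT libraries (23.7% of all genes): Wt1, Kirrel, Tcf21, Inf2, Foxd1, Vegfa and Synpo. Another 4 were higher in both (7.85%): Npnt, Magi2, Foxc1 and Rhpn1. With 2 libraries against 2, an exact test cannot reach 0.05. In H3K9ac 0 members passed (0.0% of all genes), and Magi2 alone had an unadjusted p under 0.05, at 1.14 kb higher in ACSS2-/- (limma adjusted p = 0.389).

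In control kidneys 0 members passed at the ends for H3K9cr (0.568% of all genes higher), and 5 had an unadjusted p under 0.05, all higher in ACSS2-/-: Rhpn1, Podxl, Clic5, Cdkn1c and Npnt. There were 8 members higher in both ACSS2-/- control libraries than in both WT ones, and 36.6% of all genes were. Over the whole gene 2 members passed limma (1.56% of all genes higher). Rhpn1 had 0 and 0 kb in WT and 1.71 and 1.66 kb in ACSS2-/- (difference 1.69 kb, SE 0.297, limma adjusted p = 0.0417). Cdkn1c, the p57 inhibitor of cyclin-dependent kinases, had 0 and 0 kb in WT and 0.942 and 1.31 kb in ACSS2-/- (difference 1.13 kb, limma adjusted p = 0.0488). Neither passed with scaling to equal total cover, and the ACSS2-/- control libraries were the ones with the largest cover. Without ACSS2-/- control replicate 2 the count was 2 at the ends (Podxl and Clic5) and 8 over the whole gene, and without either WT control library it was 0 over the whole gene.

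UUO was also set against control within each genotype for H3K9cr. In WT alone 0 members passed limma at the ends (1.56% of all genes in either direction) or over the whole gene (1.83% of all genes lower), where 1 and 3 members had an unadjusted p under 0.05. The 1 at the ends was Rhpn1, which was higher in UUO (0.69 kb), and the 3 over the whole gene were Magi2 and Plce1, both lower, and Rhpn1, higher. In ACSS2-/- alone, Cdkn1c was lower at the ends (-0.965 kb, SE 0.210, limma adjusted p = 0.0330, beside 7.54% of all genes). There were 10 members lower over the whole gene in ACSS2-/- (16.0% of all genes), namely the 8 above with Cdkn1c and Robo2. With libraries scaled to equal total cover, 0 members passed at the ends and 1 over the whole gene, Clic5 (-3.61 kb). The difference between the genotypes was tested itself, and 0 members passed at the ends (0.178% of all genes) or over the whole gene (0.25%), so the UUO change was not shown to differ between WT and ACSS2-/-. At an unadjusted p under 0.05 there were 5 members at the ends and 9 over the whole gene, all with a negative difference. The share of all genes at that p is not given here, so these counts cannot be set against it. The ACSS2-/- control libraries, which enter this difference, had the largest cover. Without ACSS2-/- control replicate 2, Clic5 passed this test at the ends and 6 members did over the whole gene, and without WT UUO replicate 1 Trpc6 passed.

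Other genes of the glomerular filter, a list of 30 chosen for their role in the basement membrane, the slit or the foot process, gave a wider view. A peak lay at an end of 23 of them (76.7%) in all 14 libraries, against 48.9% of protein-coding genes. For H3K9cr at the ends, 4 of 27 tested were lower in UUO by limma, beside 8.67% of all genes, and 0 higher. Col4a4 (-2.46 kb) and Col4a3 (-2.38 kb), the collagen IV chains made by podocytes, led, followed by the ephrin Efnb1 (-1.71 kb), and the 2 collagen genes share 1 bidirectional promoter. For H3K9ac 12 of 27 were lower, beside 38.5% of all genes, led by Slc9a3r2 (-4.24 kb), a scaffold that binds podocalyxin, Col4a3 (-3.02 kb) and Col4a4 (-2.75 kb). Over the whole gene 9 of 30 were lower in H3K9cr (15.5% of all genes), led by Col4a3 (-16.1 kb), Ezr (-9.36 kb) and Pard3 (-8.998 kb), and 17 of 30 in H3K9ac (39.4% of all genes), led by Ezr (-16.4 kb), Lama5 (-8.37 kb) and Col4a3 (-8.34 kb). Between the marks, 2 of 27 were lower in H3K9cr at the ends (9.91% of all genes), and 5 of 30 were higher over the whole gene (10.6% of all genes), led by Col4a3 (10.4 kb), Fyn (6.53 kb) and Bmp7 (4.51 kb).

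In H3K9cr at the ends, leukocyte markers were called higher in UUO, and proximal tubule markers lower, more often than all genes. The other marker lists varied. The 1 of 13 distal nephron genes lower in H3K9cr, and the 3 of 9 parietal epithelial genes lower in H3K9ac, were close to the shares of all genes. All counts that follow are of limma calls and stand beside 1.66% of all genes higher and 8.67% lower in H3K9cr, and 38.5% lower in H3K9ac. The number of all genes higher in H3K9ac is given above with the effect of scaling. The summed H3K9cr cover of the 31 podocyte genes was 40.4 to 59.3 kb in control and 33.8 to 47.4 kb in UUO libraries, and that of H3K9ac 55.4 to 76.3 kb and 28.9 to 52.0 kb. The 15 leukocyte genes went from 5.13 to 11.2 kb in control to 20.1 to 49.99 kb in UUO for H3K9cr, with 7 of 14 tested higher, and 3 of 14 were higher in H3K9ac. The 15 proximal tubule genes went from 43.2 to 67.6 kb to 8.85 to 20.7 kb, with 9 of 15 lower, and 11 of 15 were lower in H3K9ac. The 15 endothelial genes went from 22.3 to 40.8 kb to 11.5 to 27.9 kb in H3K9cr, with 0 of 14 called, and 10 of 14 were lower in H3K9ac. The 13 distal nephron genes had 1 lower in H3K9cr and 7 lower in H3K9ac, and the mesangial and stromal genes had 0 of 13 called in either mark. Of 9 parietal epithelial genes 2 were higher and 2 lower in H3K9cr, and 1 was higher and 3 lower in H3K9ac. The part of these changes in the podocyte genes' values was not tested. Within each library, the mean cover of a podocyte gene was 1.05 to 1.41 times that of all protein-coding genes.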

How the data were processed

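Chromatin from whole mouse kidney was immunoprecipitated for H3K9cr or H3K9ac and sequenced. The authors aligned reads with Bowtie2 to mm10 (GRCm38), called peaks with MACS2 and annotated them with ChIPseeker, and per the labels no versions are given. The deposited lists hold peak positions only, with no count, signal or score. Read depth is therefore unknown, and a missing peak is not an absent mark.

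Peaks were joined where they overlapped, and the kb they cover was summed within 3 kb of either RefSeq gene end and over the gene with 3 kb on each side, with at least 1 base of overlap. Sums were checked against bedtools 2.31.1 (0 of 434 differed). For genes with a peak in at least 1 library, limma 3.58.1 in R 4.3.3 (lmFit, contrasts, eBayes with trend) was fitted to 14 libraries in 8 groups of genotype, operation and mark, with 6 residual degrees of freedom. A control group with 1 H3K9ac library borrows the spread of the others. Tests are two-sided, with Benjamini-Hochberg adjustment over all genes and a threshold of 0.05. The fit was tested on simulated data for H3K9cr at the ends, UUO against control, and it missed most of the known differences. A member that was not called is therefore not shown to be unchanged. Single values were tested by exact permutation. Groups that do not overlap are counted without a test. Counts at an unadjusted p under 0.05, and counts with scaling over the whole gene, stand without the share of all genes. So do most counts under other settings and those without single libraries. They cannot be set against it.

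The members, the lists and the tests were chosen with earlier results of these data known. The members called in a comparison are named, at most 10 of them by size of difference with values, as are members with a peak in none or all libraries, the 4 markers and the 3 largest called genes of the other filter list. The results over the whole gene were among the alternatives, and their own alternatives were chosen after seeing the data. Other settings were a 1 kb window, the start site only, all annotated genes, the 15988 longest peaks of each library, scaling to the same total cover, a log2 scale with 100 bases added, no filter, 1 mark in the fit, a replicate block, samples shared by the marks (limma's duplicateCorrelation, chosen after seeing the data), an overlap of 50% of the peak and leaving out each library. Leaving out an H3K9ac control library removes that control group, and the contrast is then taken over the groups that remain.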

Additional observations from a re-analysis of the deposited data

Results flagged for a closer look

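Rhpn1 moved in opposite directions in the genotypes. Its H3K9cr at the ends was 0 and 0 kb in WT control and 0.623 and 0.757 kb in WT UUO, against 1.71 and 1.66 kb in ACSS2-/- control and 1.01 and 1.09 kb in ACSS2-/- UUO. Both WT UUO libraries were above both WT controls, as in 21.3% of all genes. Both ACSS2-/- UUO libraries were below their controls, as in 47.7% of all genes, and those controls had the largest H3K9cr cover. Rhpn1 was not alone in this among the members. Inf2, among others, differed by 1.09 kb in WT and -0.933 kb in ACSS2-/-, and Synpo by 0.973 and -0.66 kb. For Rhpn1 the UUO difference in ACSS2-/- less that in WT was -1.33 kb, with a limma adjusted p of 0.308, which misses the threshold.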

How the results depend on the processing

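Counts are members called by limma. The share of all genes called under these settings is not given beside them, and scaling at the ends moved the calls over all genes as well. A shift in a count is therefore not a result about the podocyte genes. For H3K9cr in UUO at the ends (0 of 29) the count was 1 with the start site only and 8 over the whole gene, and 0 to 3 without single libraries. For H3K9ac in UUO (11 of 29) it was 6 with a 1 kb window, 6 with the start site only, 7 with the longest peaks, 6 with scaling to total cover, 4 on the log2 scale, 7 with no filter and 6 with 1 mark in the fit, and 1 to 14 without single libraries. For H3K9cr against H3K9ac (4 of 29) it was 2, 1, 7, 12, 1 and 2 under the first 6 of these settings in that order, 10 over the whole gene, and 0 to 7 without single libraries. For ACSS2-/- against WT in H3K9cr (0 of 29), UUO gave 0 to 1 without single libraries (Trpc6 without WT UUO replicate 1), and control kidneys gave 2 over the whole gene, 1 with all annotated genes and 0 to 2 without single libraries. The difference of the UUO effect between genotypes gave 0 to 1. H3K9ac in UUO between genotypes gave 0 throughout.

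Over the whole gene, the 8 members of H3K9cr in UUO became 5 with scaling, 3 on the log2 scale and 4 to 11 without single libraries. The 14 of H3K9ac became 3, 7 and 1 to 17. The 2 of ACSS2-/- against WT in control kidneys became 0 with scaling, 0 on the log2 scale and 0 to 8 without single libraries. The 10 between the marks became 2 to 10 without single libraries. With scaling, the H3K9ac difference in UUO turned positive for Foxc1 (1.45 kb, at the ends and over the whole gene), Vegfa (1.57 kb) and Dach1 (0.687 kb). The cause of these moves was not tested. The median number of members with a peak, 22, was 22 with the stricter overlap, 19 with a 1 kb window and 17 with the longest peaks.

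The labels reuse replicate numbers across groups, but do not say that they mark a shared mouse, and they were not taken as pairs: deviations of same-numbered libraries correlated between -0.329 and 0.178 over 15 pairs. Joined by the number in the peak names instead, the H3K9cr and H3K9ac libraries of ACSS2-/- UUO correlated at 0.329 and those of WT UUO with the same number at -0.0359. With a replicate block, H3K9ac in UUO gave 8 members, H3K9cr against H3K9ac 2, and ACSS2-/- against WT in control kidneys over the whole gene 0. Taking libraries of both marks with the same number in their peak names as 1 sample (9 samples, estimated correlation 0.341 at the ends and 0.401 over the whole gene, chosen after seeing the data) gave 12 members for H3K9ac in UUO, 5 for H3K9cr against H3K9ac, and 8, 14, 2 and 12 over the whole gene in the order above. The lists hold no peak height and H3K9ac control kidneys have 1 library a genotype, which limits every comparison of that mark.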
